A study of Mus musculus with 16 samples.

Results

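Astrocyte genes were followed in 16 RNA-sequencing libraries of cultured mouse hippocampal neurons. The set held 37 genes taken by symbol from a list, of the 48397 genes in the count files: 20 astrocyte identity genes, the 2 intermediate filament genes Vim and Nes, which immature and reactive astrocytes share, and 15 genes known from reactive astrocytes. Hippocampal neurons of wild-type CD1 mice were cultured from pups aged P0 to P2 and received cytosine arabinoside, an agent that stops dividing cells, on day 3 in vitro (DIV). All cultures were then given 10-fold concentrated medium of immortalized astrocytes at 10 DIV and 13 DIV and were harvested at 17 DIV. In the 3 treated groups, the medium came from lines made from mice that carry human APOE in place of mouse Apoe and held apoE2, apoE3 or apoE4 lipoproteins. In the control group it came from Apoe-/- astrocytes and held no apoE. Each group thus had medium of its own line, and apoE cannot be told apart from anything else that differed between these media. A lipoprotein named below with a level or a change stands for the medium of its line. Each group had 4 libraries, numbered 1 to 4 in the labels. The methods of the study describe the 4 libraries of a group as separate cultures, so p-values of fits on group alone are set against the spread between cultures. Where the replicate number was added to a fit as a block, they are set against the smaller spread left within numbers. The labels do not say whether a number marks a preparation that the groups share.

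Astrocytes are the glial cells that clear glutamate from synapses, buffer potassium and water, and make most of the brain's apoE lipoproteins. After injury or inflammation they become reactive: they enlarge their intermediate filament network and turn on secreted protease inhibitors, complement and acute-phase proteins. Cultures of hippocampal neurons usually keep some astrocytes despite the arabinoside step, and the medium added here contains what astrocytes secrete but no astrocytes. In RNA from a whole culture, fewer cells of a type and less RNA per cell cannot be told apart, and this holds for every level below.

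Of the 37 genes, 36 passed the filter on low counts. The exception was Gjb6, the gap junction protein connexin 30, which had 0 to 18 counts a library and was at 0 in 1 library. All other members were detected in each of the 16 libraries. Total gene counts were 14087723 to 34248172 a library, and levels are given as CPM, counts scaled to a common library total. Gfap had 4707 to 54285 counts a library and Timp1 35 to 1318. Between 38.4% and 73.7% of the reads of a library fell on no gene, and the gene Lars2 alone held 0.359% to 15.02% of the gene counts. Both shares moved with the replicate numbers, with medians of 72.3% and 12.4% in number 1 and of 52.7% and 3.75% in number 2. They also differed within numbers. In number 1 the control library was lowest in both, at 61.8% of reads on no gene and Lars2 at 5.95%. The apoE2, apoE3 and apoE4 libraries of number 1 had 73.7%, 71.6% and 73.1%, with Lars2 at 15.02%, 12.5% and 12.2%. The control library was also lowest in both shares in number 3, and in neither share in numbers 2 and 4. The apoE2 library of number 4 and the apoE4 library of number 2 stood apart, with 38.4% and 38.6% of reads on no gene and Lars2 at 0.690% and 0.359%. The part of these shares in the results below was not tested. The 16 neuron genes examined beside them, such as Map2 and Snap25, also passed the filter without exception, with summed levels of 4173 to 10415 CPM. Markers of the labelled cell type were thus present in each library, together with those of astrocytes.

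Gfap, which encodes the filament protein that defines mature astrocytes, had the highest level per length of the set in control cultures, 154 ± 110 CPM per kb of exons (mean ± SD, n = 4). On the same scale, Vim stood at 114 ± 81.7, Aldoc, the brain form of the glycolytic enzyme aldolase, at 91.5 ± 41.1, and Serpina3n, an inhibitor of serine proteases, at 82.3 ± 34.0. Lcn2, an iron-siderophore carrier of the acute phase, stood at 80.4 ± 59.3 and Slc1a2, the glutamate transporter GLT-1, at 64.5 ± 15.6. These 6 levels overlapped within their SDs and set no order among the genes. At the other end stood Gjb6 at 0.0336 ± 0.0338, the asparaginase Aspg at 0.135 ± 0.0616, the sphingosine kinase Sphk1 at 0.670 ± 0.123 and the glycosyltransferase B3gnt5 at 0.686 ± 0.497 CPM per kb. Reads of Aldh1l1 and Fgfr3 are less certain than the rest, because 13.4% and 13.9% of their exon bases overlap another annotated gene and the sources used here do not say whether counting used the strand.

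Gfap, Timp1 and Serpina3n carry most of what follows, and the 250 bases before their RefSeq starts are shown as the regulatory sequence beside their values. On GRCm38, the build of the files, GENCODE M21 places Gfap (ENSMUSG00000020932) at chr11:102887336-102900912 on the minus strand. Timp1 (ENSMUSG00000001131), an inhibitor of matrix metalloproteinases, lies at chrX:20870166-20874735 on the plus strand, and Serpina3n (ENSMUSG00000021091) at chr12:104406729-104414329 on the plus strand. The RefSeq start of Gfap lies inside the longer GENCODE gene, so its window is not upstream of every annotated Gfap transcript. The windows are chr11:102897201-102897450 (minus strand), chrX:20869916-20870165 (plus strand) and chr12:104406458-104406707 (plus strand), from RefSeq on GRCm38.p6, read 5′ to 3′ along each gene. Capitals mark a match to one of 3 motifs searched on both strands: the STAT palindrome TTCNNNGAA, the AP-1 site TGANTCA and the TEAD site GGAATG, none of which contains another.
Gfap: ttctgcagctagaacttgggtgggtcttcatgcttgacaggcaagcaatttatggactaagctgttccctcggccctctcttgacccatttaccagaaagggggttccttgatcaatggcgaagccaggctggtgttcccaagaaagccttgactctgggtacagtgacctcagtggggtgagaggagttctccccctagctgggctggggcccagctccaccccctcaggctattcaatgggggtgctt
Timp1: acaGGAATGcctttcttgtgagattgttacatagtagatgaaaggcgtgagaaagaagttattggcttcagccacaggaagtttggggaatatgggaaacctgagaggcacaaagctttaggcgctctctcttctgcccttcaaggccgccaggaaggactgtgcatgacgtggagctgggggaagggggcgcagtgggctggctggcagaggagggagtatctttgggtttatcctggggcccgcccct
Serpina3n: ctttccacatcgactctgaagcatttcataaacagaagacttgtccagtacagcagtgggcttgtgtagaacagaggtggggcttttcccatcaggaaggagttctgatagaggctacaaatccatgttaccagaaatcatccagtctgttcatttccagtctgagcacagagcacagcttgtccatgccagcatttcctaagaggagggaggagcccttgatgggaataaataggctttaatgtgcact
The one match in these 3 windows is a TEAD site in Timp1, 247 to 242 bases before the start, and 12.6% of 32851 promoter windows of this length hold such a site. The STAT palindrome and the AP-1 site were found in 7.02% and 6.75% of those windows. Of the 42 windows of members in the table, 8 held the STAT palindrome, 5 the AP-1 site and 5 the TEAD site. The STAT palindrome lay before starts of Slc1a3, Acsbg1, Ntsr2, Steap4, Aldoc, Emp1 and Sphk1, of which the last 3 have more than 1 annotated start. A match is a description of these letters, and its absence says nothing beyond this window.

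The clearest order among the 16 libraries was that of the replicate numbers, not of the groups. With group as a covariate, 35 of the 36 members tested differed between replicate numbers at an adjusted p under 0.05 (edgeR quasi-likelihood F test), against 63.7% of all 17038 genes. The exception was Atp1b2, a subunit of the sodium pump, with an adjusted p of 0.155. For 33 members the level was lowest in number 2 and for 30 it was highest in number 4. Replicate numbers held a median of 82.0% of a member's variance in log2 CPM and groups 12.4%, where the medians over all genes were 56.1% and 14.4%.

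C3, the central complement component, had the smallest p of all members between replicate numbers. In the order of replicate numbers 1 to 4, its CPM was 313, 11.99, 87.8 and 776 in control, 532, 29.6, 219 and 731 with apoE2, 646, 31.1, 169.7 and 1582 with apoE3 and 688, 25.3, 159.6 and 1853 with apoE4. Every library of number 2 lay below every library of the other numbers, and the means of numbers 4 and 2 stood 50.4-fold apart. Steap4, a metalloreductase, spanned 75.3, 5.03, 26.6 and 200.4 in control, 121, 9.74, 46.5 and 172 with apoE2, 127, 17.1, 48.9 and 369 with apoE3 and 121, 8.52, 36.3 and 493 with apoE4, a 30.6-fold distance between the same numbers. Gja1, the gap junction protein connexin 43, followed the same order with 38.2, 10.1, 23.2 and 84.2 in control, 67.01, 14.5, 35.7 and 69.9 with apoE2, 77.1, 16.1, 36.5 and 145 with apoE3 and 62.5, 13.8, 35.9 and 134 with apoE4. Numbers 4 and 2 stood 7.96-fold apart in Gja1, 7.42-fold in Mlc1 and 9.55-fold in S100b.

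Mlc1, a membrane protein of astrocyte junctions, had CPM values of 148, 38.6, 96.5 and 311 in control, 236, 50.1, 115 and 230.0 with apoE2, 253, 54.5, 129 and 478 with apoE3 and 198, 52.6, 123 and 433 with apoE4. S100b, a calcium-binding protein, had 14.96, 5.84, 16.5 and 57.03 in control, 34.03, 7.15, 20.9 and 49.8 with apoE2, 42.7, 7.83, 24.5 and 91.01 with apoE3 and 27.7, 8.07, 21.6 and 77.9 with apoE4. In these genes the 4 libraries of number 2 were again the lowest of all 16, and the groups overlapped throughout. Adjusted p-values of the 5 genes between replicate numbers ran from 1.64e-09 for C3 to 1.21e-08 for S100b.

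A few members left this order. Slc1a2 was highest in number 3 and lowest in number 4, with CPM values of 813, 889, 1089.8 and 593 in control, 539, 567, 1007 and 506 with apoE2, 564, 889.7, 915 and 511 with apoE3 and 932, 862, 1346 and 597 with apoE4. This transporter is also made by some hippocampal neurons. S100a10, the partner of annexin A2, was highest in number 3 and lowest in number 1, and B3gnt5 was lowest in number 3. In Serpina3n and Atp1b2 the groups held more of the variance, 68.2% and 37.1%, than the replicate numbers, 26.2% and 18.8%.

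**Figure D1:**
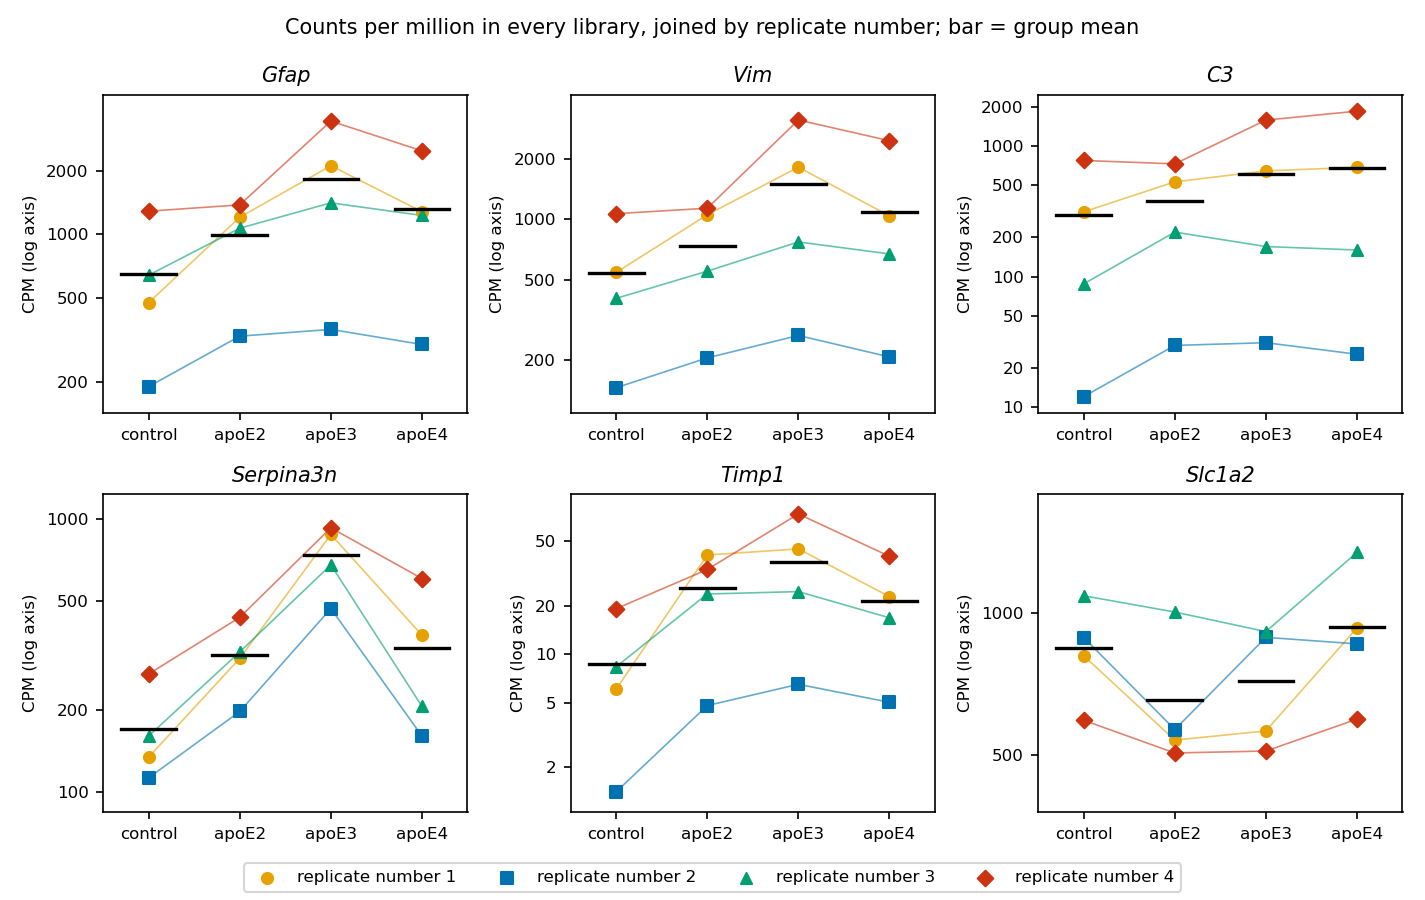
CPM (log axis) of Gfap, Vim, C3, Serpina3n, Timp1 and Slc1a2 in each of the 16 libraries, by group, with 1 symbol and 1 line for each replicate number and a bar for each group mean. In Gfap, Vim, C3 and Timp1 the library of number 2 is the lowest of each group, Serpina3n has every apoE3 library above every control library, and Slc1a2 is lowest in number 4.

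Other cell types of the culture moved with the replicate numbers too. The identity genes summed to means of 4143, 1797, 3599 and 5559 CPM in numbers 1 to 4, and the reactive genes to 2316, 484, 1230 and 4049 CPM. All 12 oligodendrocyte-lineage genes were tested, and their sums were 128 to 167 CPM in number 2 and 409 to 998 CPM in numbers 1 and 4. The 12 fibroblast and mural genes summed to 32.2 to 36.7 CPM in number 2 and to 200.3 to 551 CPM in number 4. Microglia genes summed to 18.99 to 25.7 CPM in number 3 and 71.7 to 129.5 CPM in number 4, with the defining marker Tmem119 at 19 counts or fewer in any library and at 0 in 1. Endothelial genes were near 0, at 2.54 to 9.46 CPM in sum, with Cldn5, Cdh5 and Emcn at 0 in 1 library each. The neuron genes ran the other way, with means of 6644, 9057, 9819 and 5269 CPM in numbers 1 to 4. The part of these cell types in the results below was not tested.

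**Figure D2:**
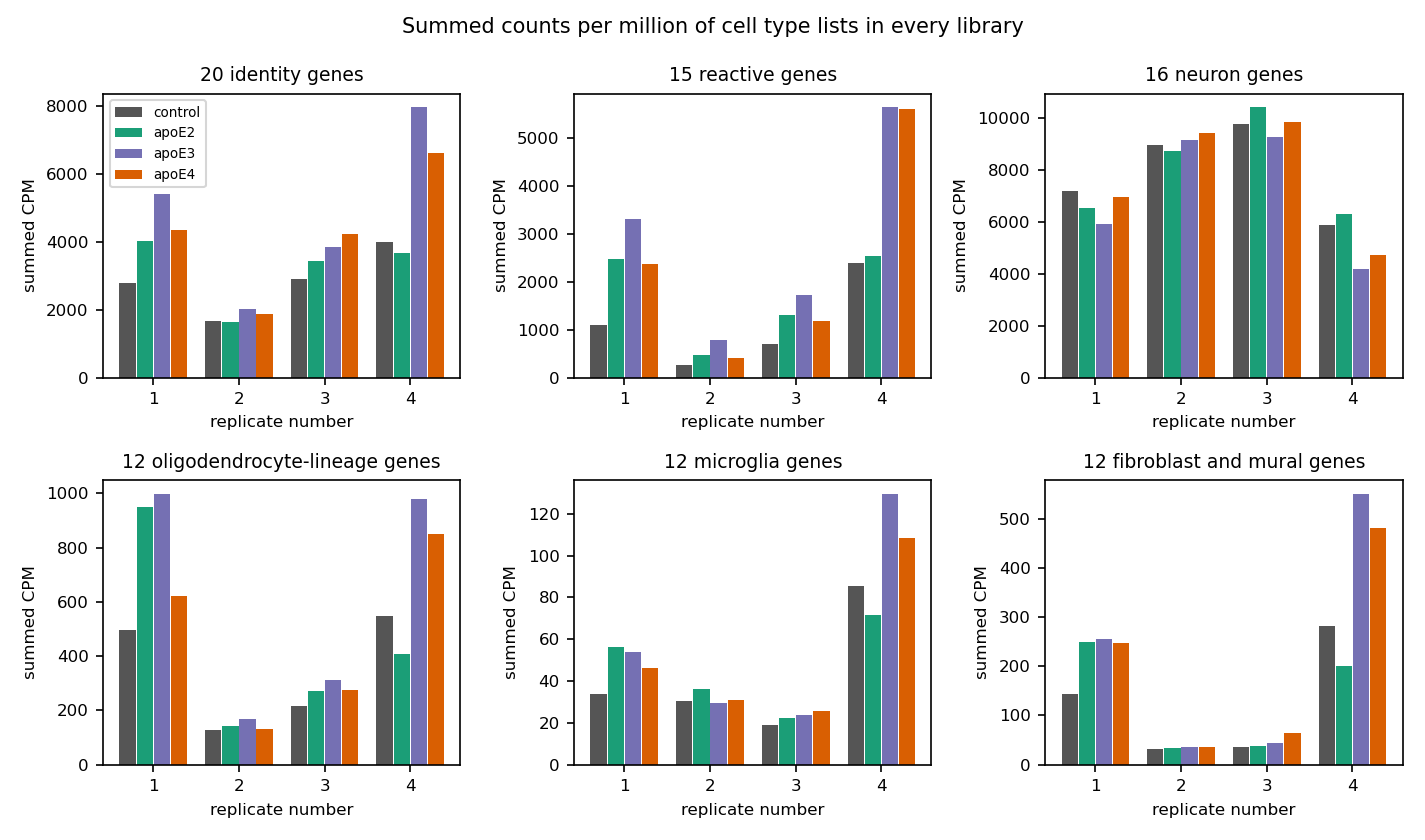
Summed CPM of 6 cell type lists in each library (bars from 0), grouped by replicate number and coloured by group. The identity, reactive, oligodendrocyte-lineage and fibroblast and mural sums are small in number 2 in all 4 groups, while the neuron sums are largest in numbers 2 and 3.

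**Figure D3:**
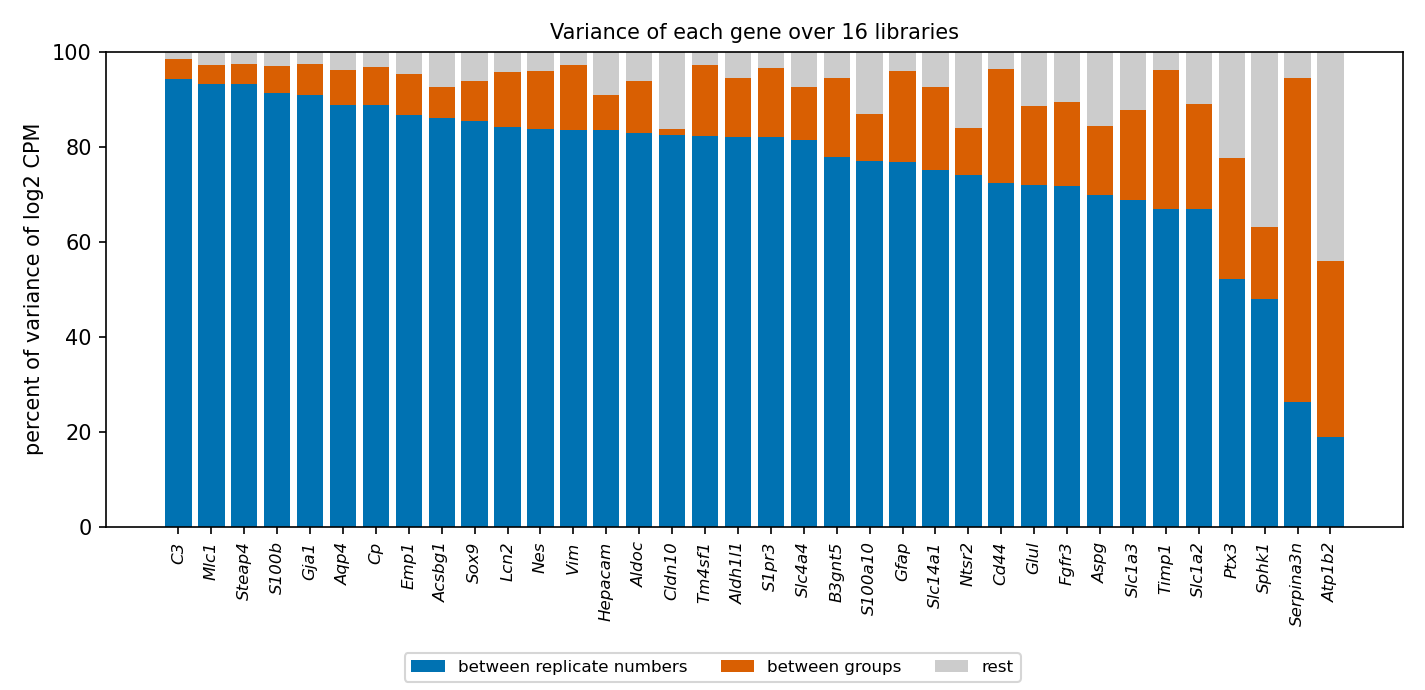
Percent of the variance of log2 CPM that lies between replicate numbers, between groups and in the rest, for the 36 members tested. Replicate numbers hold the largest share for most members, from 94.3% for C3 downwards, and Serpina3n is the member with 68.2% between groups.

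The first question was whether these genes differed between cultures given each apoE medium and those given medium without apoE. In the fit without the replicate number, no member passed an adjusted p of 0.05 with apoE2, apoE3 or apoE4, where 0%, 0.00587% and 0.194% of all genes did. The edgeR test put 1, 3 and 2 of the 36 members under an unadjusted p of 0.05, where 2.78%, 6.34% and 3.33% of all genes lay under it, and DESeq2 called 0, 1 and 0 members at an adjusted p of 0.05, beside 0.170%, 0.352% and 0.534% of all genes. At the criterion of the study, a change of at least 2-fold with an unadjusted p under 0.05, 3 members were higher with apoE3, Serpina3n, Timp1 and Ptx3, against 1.24% of all genes that were higher and 1.95% in either direction. With apoE2 and apoE4, 0 members met it, where 0.716% and 1.14% of all genes did. Leaving out 1 library moved these counts to between 0 and 2 with apoE2 (2 without control replicate 4 or apoE2 replicate 2, beside 1.34% and 0.906% of all genes). With apoE3 they ran from 1, beside 1.18% to 1.48% of all genes, to 11 without control replicate 4 (4.32%) and 12 without apoE3 replicate 2 (5.25%), and with apoE4 from 0 to 5 without control replicate 4 (2.10%). The 3 comparisons share the 4 control libraries, so a control library that stands low or high moves them together.

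Across the 17038 genes tested, libraries of one number deviated together from their group means. In number 1 they did so no more than the closest libraries that differed in both number and group. With the replicate number as a block the counts of members changed. At an adjusted p under 0.05 in this blocked fit, 6 members rose with apoE2, where 1.17% of all genes rose and 1.72% passed in either direction. With apoE3, 27 members rose, beside 7.98% of all genes that rose and 11.8% in either direction. With apoE4, 14 members rose, beside 3.21% and 3.34%. At the criterion of the study, 2, 17 and 7 members met it in the blocked fit with apoE2, apoE3 and apoE4, beside 1.54%, 4.76% and 2.48% of all genes. No member fell in any of the 3 in edgeR. DESeq2 with the same block called all of these members at an adjusted p under 0.05 and 7, 2 and 7 more with apoE2, apoE3 and apoE4, beside 4.16%, 15.8% and 5.65% of all genes. Calls against control given below as passing or not are those of the blocked edgeR fit unless DESeq2 is named. Without the block, the adjusted p-values of these members were 0.256 to 0.875 with apoE3 and 1.00 with apoE2 and apoE4. The 6 members of apoE2 and the 14 of apoE4 were all among the 27 of apoE3, and 13 members passed with apoE3 alone, which does not by itself show that they differed between isoforms.

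Without the block, the 36 members had a median log2 fold change of 0.36 for apoE2, of 0.94 for apoE3 and of 0.71 for apoE4, beside 0.01, 0.02 and 0.00 over all genes tested. Some lists of other cell types stood above 0 as well: the medians of 12 oligodendrocyte-lineage genes were 0.25, 0.82 and 0.55, and those of 11 fibroblast and mural genes 0.24, 0.85 and 0.81. They were 0.03, 0.48 and 0.30 for 12 microglia genes and 0.05, 0.18 and 0.09 for 5 endothelial genes. The 16 neuron genes had medians of -0.06, -0.25 and -0.02. Within replicate numbers, 15, 30 and 29 of the 36 members were higher than the control library of the same number in 4 of 4 pairs, against 11.6%, 18.6% and 14.9% of all genes. Groups as a whole overlapped for every member with apoE2 and apoE4, where 2.19% and 1.91% of all genes were free of overlap. With apoE3 they did not overlap for 1 member, Serpina3n, beside 2.59% of all genes.

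**Figure D4:**
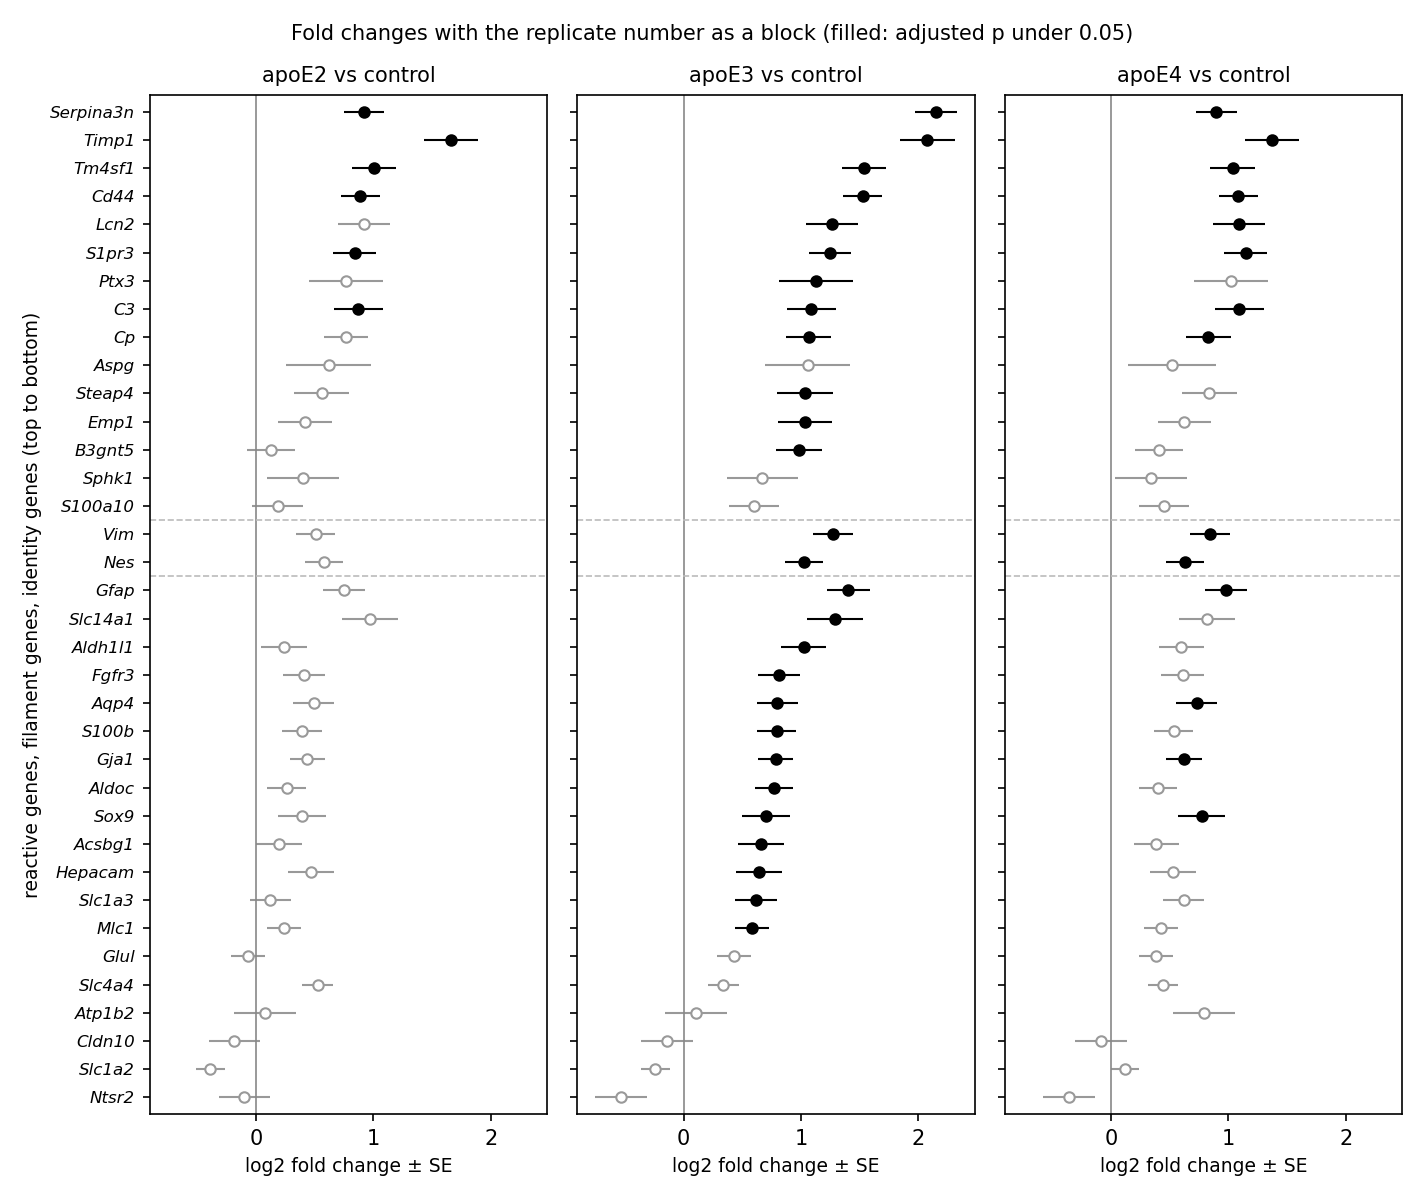
Log2 fold changes against control (points) with their SE (bars) for the 36 members tested, from the blocked fit, in 3 panels for apoE2, apoE3 and apoE4. Filled points have an adjusted p under 0.05, which are 6, 27 and 14 genes, and all of them lie above 0.

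Among the reactive genes, 6 of 15 rose with apoE2, 12 with apoE3 and 8 with apoE4 in the blocked fit. The secreted protease inhibitors Serpina3n and Timp1 are given first. Serpina3n had CPM values of 135, 113, 161 and 271 in control, 309, 198, 327 and 437 with apoE2, 878, 470.5, 680.1 and 929 with apoE3 and 376, 161, 206 and 606 with apoE4. The 4 apoE3 libraries lay above all control libraries, with 3.42 to 6.52 times the control of the same number, and the apoE2 and apoE4 libraries overlapped the control libraries. Its log2 fold change with apoE3 was 2.12 ± 0.41 (SE), with an adjusted p of 0.256 without the block and 2.22e-05 with it. The blocked log2 fold changes were 0.92 ± 0.17 with apoE2 (adjusted p = 0.0144) and 0.90 ± 0.17 with apoE4 (adjusted p = 0.00880). Serpina3n belongs to a family of near-identical copies, and 10 other Serpina3 genes held 13108 counts in all libraries together, 9.88% of its own 132656, so reads shared between copies may have been split.

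Timp1 rose with all 3 lipoproteins in the blocked fit. Its CPM was 6.09, 1.41, 8.38 and 19.2 in control, 41.2, 4.81, 23.6 and 33.5 with apoE2, 44.9, 6.52, 24.5 and 73.95 with apoE3 and 22.8, 5.04, 16.8 and 40.5 with apoE4. Each treated library exceeded the control of its own number, by 1.75 to 6.77 times with apoE2, 2.92 to 7.38 times with apoE3 and 2.01 to 3.74 times with apoE4, yet the groups overlapped, with number 2 the lowest in each. Without the block the log2 fold change with apoE3 was 2.10 ± 0.86 (adjusted p = 0.770). With it the changes by apoE2, apoE3 and apoE4 were 1.66 ± 0.23, 2.08 ± 0.23 and 1.37 ± 0.23 (adjusted p = 0.00374, 0.000151 and 0.00380). Timp1 lies within the neuronal gene Syn1, with no shared exon.

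Ptx3, a secreted pentraxin that marks the neuroprotective type of reactive astrocyte in older schemes, had CPM values of 4.55, 6.48, 6.81 and 13.4 in control, 11.8, 13.1, 8.89 and 16.4 with apoE2, 21.6, 7.42, 8.91 and 40.03 with apoE3 and 12.9, 7.50, 11.5 and 40.7 with apoE4. Its groups overlapped, and 2 libraries of number 4 stood near 40 CPM. The log2 fold change with apoE3 was 1.32 ± 0.58 without the block (adjusted p = 0.777) and 1.13 ± 0.32 with it (adjusted p = 0.0315). With apoE4 the blocked value of 1.02 did not pass in edgeR (adjusted p = 0.0984) and did in DESeq2 (adjusted p = 0.0228).

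Receptors and surface proteins of reactive cells followed. Cd44, the receptor for hyaluronan, rose with all 3 lipoproteins in the blocked fit, by 0.89, 1.53 and 1.08 in log2 with apoE2, apoE3 and apoE4 (adjusted p = 0.0154, 0.000151 and 0.00175). Tm4sf1, a tetraspanin-like membrane protein, did so by 1.01, 1.54 and 1.03 (adjusted p = 0.0154, 0.000301 and 0.00627), and the sphingosine 1-phosphate receptor S1pr3 by 0.84, 1.25 and 1.15 (adjusted p = 0.0313, 0.000885 and 0.00217). Without the block, the smallest adjusted p of these 3 genes was 0.778, for Cd44 with apoE3.

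Acute-phase and complement genes were among the calls as well. C3 rose in the blocked fit by 0.87, 1.09 and 1.09 in log2 with apoE2, apoE3 and apoE4 (adjusted p = 0.0480, 0.00444 and 0.00799), and without the block its adjusted p was 0.863 or more. The apoE2 call of C3 held in 2 of the 16 fits that left out a library. Lcn2 rose with apoE3, by 1.26 (adjusted p = 0.00288; 0.808 without the block), and with apoE4, by 1.09 (adjusted p = 0.0126), and stood just outside the threshold with apoE2 (adjusted p = 0.0502). The copper ferroxidase Cp rose with apoE3 by 1.07 and with apoE4 by 0.83 (adjusted p = 0.00315 and 0.0267).

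Besides Ptx3, the reactive genes that passed with apoE3 and not with the other lipoproteins in edgeR were Steap4, the membrane protein gene Emp1 and B3gnt5, at blocked values of 1.04, 1.03 and 0.98 in log2 (adjusted p = 0.0113, 0.00939 and 0.00589; 0.875, 0.813 and 0.808 without the block). The 3 reactive genes that passed in no comparison of the blocked edgeR fit were Aspg, Sphk1 and S100a10, with blocked log2 values with apoE3 of 1.06, 0.67 and 0.60. S100a10 was called with apoE3 by DESeq2 with the block (adjusted p = 0.0435). Aspg met the criterion of the study with apoE3 in the blocked fit at an adjusted p of 0.0688, and passed in 1 of the 16 blocked fits that left out a library. It had 4 to 46 counts a library, which limits what could be detected for it.

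The filament genes rose with apoE3 and apoE4 in the blocked fit. Vim, which encodes vimentin, had CPM values of 546, 147, 406 and 1067 in control, 1053, 206, 554 and 1135 with apoE2, 1814, 266, 773 and 3106 with apoE3 and 1039.6, 208, 674 and 2452 with apoE4. Nes, which encodes nestin, had 134, 39.4, 104 and 191 in control, 296, 55.6, 143 and 216 with apoE2, 396, 62.5, 158 and 449 with apoE3 and 214, 54.6, 164 and 316 with apoE4. Both were higher than control in 4 of 4 pairs with each lipoprotein, with groups that overlapped. For Vim the log2 fold change with apoE3 was 1.46 ± 0.83 without the block and 1.27 ± 0.17 with it (adjusted p = 0.807 and 0.000542), and with apoE4 it was 0.84 ± 0.17 in the blocked fit (adjusted p = 0.0116). Nes changed by 1.03 ± 0.16 with apoE3 and 0.63 ± 0.16 with apoE4 in that fit (adjusted p = 0.00146 and 0.0436; 0.807 with apoE3 without the block).

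Of the 19 identity genes tested, 0 passed with apoE2, 13 rose with apoE3 and 4 with apoE4 in the blocked fit. The 4 with apoE4 were Gfap, Aqp4, Gja1 and Sox9. Gfap moved most of the 13, with CPM values of 474, 189, 641 and 1288 in control, 1206, 329, 1070.0 and 1381 with apoE2, 2118, 354, 1411 and 3449 with apoE3 and 1281, 300.2, 1229.5 and 2492 with apoE4. The apoE3 libraries held 1.87 to 4.46 times the Gfap of the control of the same number and the apoE4 libraries 1.58 to 2.70 times. Its log2 fold change with apoE3 was 1.50 ± 0.73 without the block (adjusted p = 0.778) and 1.40 ± 0.18 with it (adjusted p = 0.000518). With apoE4 the blocked value was 0.98 ± 0.18 (adjusted p = 0.00719), and with apoE2 it was 0.75 ± 0.18 and just outside the threshold (adjusted p = 0.0505; 0.00334 in DESeq2 with the block).

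Channels of the astrocyte endfoot and network were among the identity genes that passed. Aqp4, the water channel of the endfoot, had CPM values of 122, 37.5, 150.1 and 321 in control, 270.1, 56.6, 197 and 271 with apoE2, 302, 59.04, 207 and 563 with apoE3 and 258, 52.8, 212 and 581 with apoE4. Its blocked log2 fold changes were 0.80 ± 0.17 with apoE3 and 0.73 ± 0.17 with apoE4 (adjusted p = 0.00911 and 0.0321; 0.816 with apoE3 without the block). Those of Gja1, whose levels are given above, were 0.78 ± 0.15 and 0.62 ± 0.15 (adjusted p = 0.00444 and 0.0327; 0.819 with apoE3 without the block). Mlc1 and its adhesion partner Hepacam passed with apoE3, at 0.58 and 0.64 (adjusted p = 0.0179 and 0.0471), as did the urea transporter Slc14a1 at 1.29 (adjusted p = 0.00367).

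Enzymes and regulators were also among the apoE3 calls. Aldh1l1, a folate enzyme used to label astrocytes, had CPM values of 63.6, 18.997, 33.96 and 61.95 in control, 100.2, 19.1, 39.6 and 63.4 with apoE2, 168, 22.8, 51.997 and 197 with apoE3 and 104, 20.9, 48.05 and 128 with apoE4. The largest apoE3 values came from numbers 1 and 4, and the log2 fold change was 1.30 ± 0.71 without the block and 1.02 ± 0.19 with it (adjusted p = 0.807 and 0.00440). Sox9, a transcription factor of the astrocyte lineage, had CPM values of 15.9, 5.11, 10.4 and 26.8 in control, 22.8, 6.84, 18.3 and 22.3 with apoE2, 26.6, 7.13, 15.7 and 50.3 with apoE3 and 38.97, 5.76, 16.9 and 45.6 with apoE4. Its groups overlapped, and it passed in the blocked fit with apoE3 at 0.70 ± 0.20 and with apoE4 at 0.77 ± 0.20 (adjusted p = 0.0349 and 0.0474; 0.813 with apoE3 without the block). Aldoc, Fgfr3, a fibroblast growth factor receptor, Acsbg1, an acyl-CoA synthetase, and S100b passed with apoE3 at 0.77, 0.81, 0.66 and 0.79 in log2 (adjusted p = 0.00789, 0.00989, 0.0388 and 0.00766).

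The glutamate handling genes are given together, and differences between them were not tested. Slc1a3, the transporter GLAST, had CPM values of 266, 130.4, 254 and 303 in control, 402, 153, 237 and 239 with apoE2, 494, 176, 292 and 577 with apoE3 and 384, 168, 363 and 613 with apoE4. It passed with apoE3 in the blocked fit at 0.62 ± 0.18 (adjusted p = 0.0339; 0.808 without the block) and did not pass with apoE4 (0.62 ± 0.18, adjusted p = 0.0701; 0.0184 in DESeq2 with the block). Glul, glutamine synthetase, had CPM values of 182, 111, 123 and 197 in control, 206, 104, 117 and 156 with apoE2, 265, 126, 141 and 339 with apoE3 and 224, 105, 174 and 335 with apoE4. It passed in no comparison in edgeR, with blocked log2 values of -0.07, 0.43 and 0.38, and DESeq2 with the block called it with apoE3 (adjusted p = 0.0473). Slc1a2 was lower than control in 4 of 4 pairs with apoE2, at a blocked log2 value of -0.39 ± 0.12 that did not pass in edgeR (adjusted p = 0.131) and did in DESeq2 (adjusted p = 0.0474), and its values with apoE3 and apoE4 were -0.24 and 0.12.

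The other identity genes that passed in no comparison of the blocked edgeR fit were Atp1b2, the neurotensin receptor Ntsr2, the bicarbonate transporter Slc4a4 and the claudin Cldn10. Atp1b2 had an unadjusted p of 0.0179 with apoE4 and a log2 fold change of 0.86 ± 0.32, with an adjusted p of 1.00 without the block and 0.135 with it. Slc4a4 was called by DESeq2 with the block with apoE2 and apoE4 (adjusted p = 0.0125 and 0.0404), beside 0.0520 and 0.0771 in edgeR. Ntsr2 had values below 0 with each lipoprotein, -0.10, -0.53 and -0.36 in the blocked fit, and so did Cldn10, at -0.18, -0.14 and -0.09.

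The blocked counts moved with single libraries, and the shares of all genes moved with them. For apoE2 they ran from 1 member, without control replicate 1 or apoE2 replicate 3 (0.306% and 0.478% of all genes), to 21 members without apoE2 replicate 4 (4.88%), the library with the smallest share of reads on no gene. Those of apoE3 ran from 17 members without apoE3 replicate 4 (5.28%) to 29 without apoE2 replicate 4 (15.8%) or apoE4 replicate 2 (11.3%), and those of apoE4 from 6 members without control replicate 1 (1.27%) to 22 without apoE2 replicate 4 (5.86%). Without all 4 libraries of number 1 they fell to 1, 12 and 3 members (0.120%, 2.40% and 0.808% of all genes), and without those of number 4 they were 17, 24 and 14 (4.18%, 8.51% and 3.09%). Serpina3n, Timp1, Cd44, Tm4sf1, S1pr3, Lcn2, C3, Vim, Nes, Gfap, Aldh1l1, Aldoc, B3gnt5, Cp, Gja1, S100b and Slc14a1 passed with apoE3 in all 16 blocked fits that left out 1 library. The other 10 apoE3 calls were lost in some of them. Of the 16 fits, Emp1 passed in 15, Aqp4, Fgfr3 and Steap4 in 14, Mlc1 in 13, Ptx3 in 12, Slc1a3 in 11, Sox9 in 10, Acsbg1 in 9 and Hepacam in 5. With apoE4, Serpina3n passed in 15, Lcn2 in 14, Vim in 13, Cp in 10, Aqp4 and Gja1 in 9, Nes in 6 and Sox9 in 4, and the other 6 in all 16. With apoE2, Timp1 passed in all 16, Serpina3n in 13, Cd44 in 12, Tm4sf1 in 11, S1pr3 in 10 and C3 in 2.

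A second question was whether the 3 isoforms differed from each other. Without the block, 0 members passed an adjusted p of 0.05 in apoE3 against apoE2, apoE4 against apoE2 or apoE4 against apoE3, where 0%, 0.252% and 0.153% of all genes did. The edgeR test put 1, 1 and 2 members under an unadjusted p of 0.05 in them, where 2.28%, 5.27% and 4.67% of all genes lay under it, and DESeq2 called 0 in each, beside 0.0528%, 0.957% and 0.405% of all genes. In the blocked fit, 3, 1 and 1 members passed, against 1.37%, 4.45% and 1.80% of all genes, so for apoE4 against apoE2 the share of members was below that of all genes. Median blocked log2 differences over the 36 members were 0.41, 0.19 and -0.20.

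Serpina3n was the member that separated apoE3 from both others. It was 1.23 ± 0.17 higher in log2 with apoE3 than with apoE2 in the blocked fit, with every apoE3 library above every apoE2 library (adjusted p = 0.00420; 1.00 without the block). With apoE4 it was lower than with apoE3, at -1.25 ± 0.17 (adjusted p = 0.00213; 0.837 without the block), in 4 of 4 pairs and with groups that overlapped. Shares of all genes free of overlap, or moved 1 way in 4 of 4 pairs, were not counted between isoforms. Both calls were kept in all 16 blocked fits that left out 1 library. These were also the members, 1 of 36 in each comparison, that met the criterion of the study without the block, where 0.675% and 1.23% of all genes did. In apoE4 against apoE2, 0 members met it, beside 1.28% of all genes.

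Vim and B3gnt5 were higher with apoE3 than with apoE2 in the blocked fit, by 0.76 ± 0.17 and 0.85 ± 0.20 in log2 (adjusted p = 0.0393 and 0.0459). The calls held in 7 and 4 of the 16 fits that left out 1 library. Slc1a2 was 0.51 ± 0.12 higher with apoE4 than with apoE2 (adjusted p = 0.0258), higher in 4 of 4 pairs, and this call held in 12 of 16 such fits. Without the block the adjusted p of these 3 differences was 1.00 each. For the other members edgeR called no difference between isoforms. DESeq2 with the block, which called 4.26%, 7.29% and 4.13% of all genes in the 3 comparisons, called these and 6 more: Aldh1l1, Cd44, Gfap and Glul in apoE3 against apoE2 (adjusted p = 0.00625, 0.0122, 0.0145 and 0.0342), Glul in apoE4 against apoE2 (0.0436) and Timp1 in apoE4 against apoE3 (0.0466). In the blocked edgeR fit the adjusted p of these 6 was 0.0600 to 0.124.

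To set single genes beside the astrocyte identity genes of the same library, levels were also expressed as a percent of the summed CPM of the identity genes, without the gene itself. In percent, Serpina3n stood at 4.86, 6.73, 5.53 and 6.81 in control, 7.67, 12.1, 9.53 and 11.9 with apoE2, 16.2, 23.4, 17.7 and 11.7 with apoE3 and 8.64, 8.62, 4.89 and 9.17 with apoE4. On this scale the apoE2 and the apoE3 libraries lay above all control libraries, with means 1.72 and 2.88 times that of control, and the apoE4 mean was 1.31 times the control mean with overlap. The separation from control depended on Slc1a2, the identity gene that was highest in number 3 and lowest in number 4. With Slc1a2 left out of the sum as well, Serpina3n stood at 6.88, 14.3, 8.84 and 8.01 in control, 8.85, 18.7, 13.5 and 13.8 with apoE2, 18.1, 41.9, 23.2 and 12.5 with apoE3 and 10.997, 16.03, 7.19 and 10.1 with apoE4 percent, so that the apoE2 and apoE3 libraries overlapped the control libraries, with means 1.44 and 2.52 times that of control and 4 of 4 pairs higher. Timp1, also in percent, stood at 0.220, 0.0838, 0.288 and 0.482 in control, 1.02, 0.296, 0.690 and 0.912 with apoE2, 0.830, 0.324, 0.636 and 0.928 with apoE3 and 0.524, 0.271, 0.399 and 0.612 with apoE4. All 4 pairs were higher with each lipoprotein, the group means were 2.72, 2.53 and 1.68 times that of control with apoE2, apoE3 and apoE4, and the groups overlapped. Without Slc1a2 in the sum, Timp1 stood at 0.311, 0.178, 0.461 and 0.566 in control, 1.18, 0.454, 0.976 and 1.06 with apoE2, 0.926, 0.580, 0.835 and 0.992 with apoE3 and 0.666, 0.503, 0.586 and 0.673 with apoE4 percent, so that the apoE3 libraries lay above all control libraries and the other groups overlapped control, with ratios of means of 2.42, 2.20 and 1.60.

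Gfap itself was higher beside the other identity genes in treated libraries than in the control of the same number. As percent of their sum it stood at 20.7, 12.7, 28.3 and 47.8 in control, 42.6, 25.3, 45.4 and 60.1 with apoE2, 64.2, 21.3, 57.99 and 76.3 with apoE3 and 41.8, 19.2, 41.2 and 60.5 with apoE4, with group means 1.58, 2.01 and 1.49 times that of control and 4 of 4 pairs higher with each lipoprotein. The groups overlapped, and without Slc1a2 in the sum the ratios were 1.42, 1.69 and 1.39, also with 4 of 4 pairs higher. Cd44, as percent of the identity sum, stood at 1.41, 0.953, 1.01 and 2.37 in control, 2.69, 1.50, 1.91 and 3.08 with apoE2, 2.80, 2.13, 1.96 and 3.10 with apoE3 and 2.54, 1.24, 1.55 and 3.12 with apoE4, with ratios of means of 1.60, 1.74 and 1.47. For Ptx3 the ratios were 1.61, 1.34 and 1.42, and 2 of 4 pairs were higher with apoE3. They were 1.60, 1.68 and 1.32 for Tm4sf1, 1.50, 1.43 and 1.44 for Lcn2 and 1.45, 1.39 and 1.53 for S1pr3, with 4 of 4 pairs higher each time. For C3 they were 1.19, 1.09 and 1.42, also with 4 of 4 pairs higher, and without Slc1a2 in the sum 1.11, 0.95 and 1.30, with 3, 2 and 4 pairs higher. The ratios were 1.07, 1.01 and 1.29 for Steap4, 1.01, 1.23 and 0.93 for B3gnt5, 0.97, 0.97 and 1.05 for S100a10 and 1.19, 0.98 and 0.90 for Sphk1. Over the 15 reactive genes the median ratio was 1.43, 1.27 and 1.31 with apoE2, apoE3 and apoE4, and 10, 9 and 8 of them were higher in 4 of 4 pairs. For 19 identity genes the medians were 1.07, 0.97 and 0.99, with 3, 2 and 2 genes higher in 4 of 4 pairs. Without Slc1a2 in the sum the medians of the reactive genes were 1.26, 1.08 and 1.17, with 8, 6 and 5 genes higher in 4 of 4 pairs. Those of 18 identity genes were then 0.93, 0.82 and 0.93, with 2, 2 and 1 such genes. Gfap is part of the sum, and no count over all genes was made on this scale. These are descriptions without a test, since the scale was built from members of the same set.

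**Figure D5:**
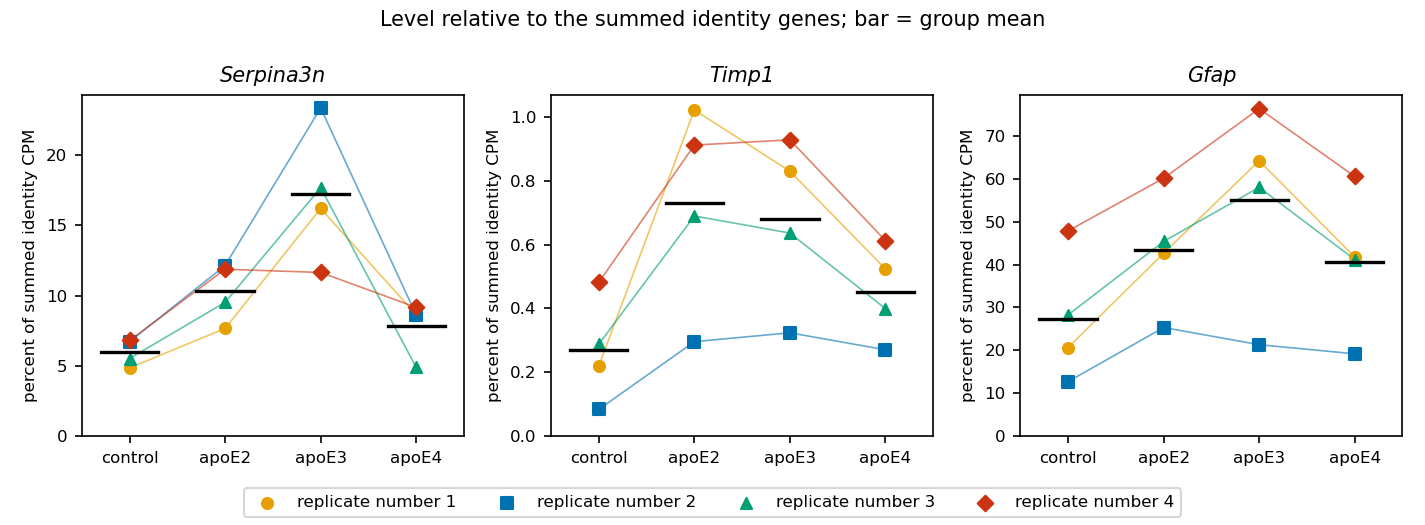
Serpina3n, Timp1 and Gfap in each library as percent of the summed CPM of the identity genes (Gfap itself left out of its own sum), by group, with a symbol and a line for each replicate number and a bar for each group mean. The apoE3 libraries of Serpina3n lie between 11.7 and 23.4 percent and the control libraries between 4.86 and 6.81 percent.

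Further genes of the same programmes were read from lists outside the set. Of 36 other astrocyte genes tested, 2, 12 and 5 rose and 0, 1 and 0 fell with apoE2, apoE3 and apoE4 in the blocked fit, where 1.17%, 7.98% and 3.21% of all genes rose and 0.546%, 3.78% and 0.129% fell. Ranked by the p without the block, the leading gene of that list was Sparcl1, a secreted matrix protein, with apoE2 (log2 0.50, adjusted p = 0.0305 with the block and 0.754 without) and Id3, a regulator of the BMP response, with apoE3 (2.42, adjusted p = 0.00175 and 0.573) and apoE4 (2.20, adjusted p = 0.00486 and 0.841). Id3 stood at a mean of 2.77 CPM in control, 17.6 with apoE3 and 13.6 with apoE4. The 1 gene that fell, Elovl2, a fatty acid elongase (-0.66, adjusted p = 0.0177), was a share of the list below that of all genes.

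Of 21 other reactive genes, 5, 9 and 9 rose and 0, 1 and 0 fell in the same order, beside the shares of all genes just given. Without the block, 1, 2 and 4 of the 21 had log2 values below 0, the lowest at -0.97, -1.08 and -1.67. The genes named next are among those that rose. Stat3, the transcription factor that drives much of the reactive response, rose with each lipoprotein in the blocked fit, by 0.49, 0.94 and 0.52 in log2 (adjusted p = 0.0124, 4.35e-05 and 0.00374; 0.414 with apoE3 without the block). Its mean level was 134 CPM in control and 187, 251 and 191 CPM with apoE2, apoE3 and apoE4. The transglutaminase Tgm1 rose by 1.49, 2.16 and 1.90 (adjusted p = 0.0117, 0.000271 and 0.000729), and the small heat shock protein gene Hspb1 by 1.77, 2.08 and 1.06 (adjusted p = 0.00257, 0.000151 and 0.0254). Without the block, the adjusted p of both genes was 0.770 or more.

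The lists of other cells stood as follows in the same blocked fit. Of 16 neuron genes, 2 rose and 3 fell with apoE3, and 0 passed with apoE2 and apoE4. Of 12 oligodendrocyte-lineage genes, 0, 5 and 1 rose, of 11 fibroblast and mural genes 0, 3 and 2, and of 12 microglia genes 0, 1 and 0, with apoE2, apoE3 and apoE4. Of the 5 endothelial genes tested, 0, 1 and 1 rose. The shares of all genes that rose and fell are those given above, and with apoE3 the 1 of 12 microglia genes was close to the 7.98% of all genes. Genes of cycling cells summed to 10.9 to 26.3 CPM in control, 27.0 to 35.1 with apoE2, 35.2 to 50.1 with apoE3 and 20.9 to 54.0 with apoE4, so that the first 3 ranges did not overlap. Of the 10 genes, 1 passed with each lipoprotein in the blocked fit: the DNA topoisomerase Top2a with apoE2 and apoE3, at log2 1.84 and 2.58 (adjusted p = 0.0139 and 0.000538), and Cenpf, a protein of the kinetochore, with apoE4, at 1.40 (adjusted p = 0.00362). Top2a alone went from a mean of 4.16 CPM in control to 14.7 with apoE2 and 23.5 with apoE3, where the mean sums were 17.9, 30.4 and 44.3 CPM. Much of the rise of the sum was thus that of Top2a. Mki67 stood at means of 5.24 CPM in control and 5.14, 7.72 and 8.41 CPM with apoE2, apoE3 and apoE4, and passed with none. Without the block, 0 of the 10 passed. Top2a, Cenpf and Mki67 are named after their values were seen. The sums of the members themselves were 4604 ± 2275, 5808 ± 2536, 9441 ± 6070 and 7933 ± 5222 CPM (mean ± SD, n = 4) in control, apoE2, apoE3 and apoE4. Whether more astrocytes, more RNA in each or another mix of cells lay behind the higher levels was not tested here. The study also counted GFAP-labelled cells by immunostaining under each treatment, a readout that was not analysed here.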

How the data were processed

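RNA was measured in 16 libraries, 4 for each of control, apoE2, apoE3 and apoE4, grouped by their labels. The authors deposited raw read counts per gene symbol, 1 table a library, made by depleting ribosomal RNA, sequencing, aligning to mm10 with STAR and counting with HTSeq. The annotation and strand setting of the counting are not given in the sources used here. The totals of reads on no gene at the end of each table, 38.4% to 73.7% of a library's reads, stayed out of library sizes and tests. Total gene counts were 14087723 to 34248172.

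Counts were scaled by TMM, filtered with filterByExpr (minimum count 10, total 15, share 0.7), which left 17038 of 48397 genes, and tested with edgeR 4.0.16 (quasi-likelihood, R 4.3.3) in 1 fit of the 16 libraries. P-values were adjusted by the Benjamini-Hochberg method for the genes tested, with a threshold of 0.05. The main design holds group alone. A fit with the replicate number as a block was run beside it, since libraries of the same number deviated together from their group means: within numbers 1, 2, 3 and 4, their correlations across genes spanned 0.362 to 0.552, 0.766 to 0.831, 0.620 to 0.671 and 0.681 to 0.790. Libraries that differed in both number and group had correlations of -0.736 to 0.569, so the values of number 1 lie within that range. The pairing rests on these correlations, not on the labels. SEs are the log2 fold change divided by the square root of F. Alternatives were DESeq2 1.42.0, DESeq2 size factors in edgeR, no filter, fits of the compared groups alone and leaving out libraries or replicate numbers. DESeq2 with the block, the blocked fits without a library or a number and the identity sum without Slc1a2 were chosen after seeing the data. The code was tested on simulated data.

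Exon lengths and gene positions came from GENCODE M21, which held 95.9% of the symbols, and promoter windows from RefSeq (GRCm38.p6). For 5 members, Aqp4, Sox9, Atp1b2, Slc14a1 and S100a10, no promoter window was used here. Values in every library are given for 11 leading identity and filament genes, for members that passed a threshold without the block and for the 5 members with the smallest p between replicate numbers. Members passing with the block alone are given by fold change, and others by range and count. The members and lists were chosen with earlier results of these data known.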

Additional observations from a re-analysis of the deposited data

Results flagged for a closer look

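In 4 of the 148 sets of a member and a group, 2.7%, 1 library stood far from the other 3 of its group by Dixon's ratio, where chance gives about 1 in 20. Slc1a2 was at 1007 CPM in apoE2 replicate 3 and at 506 to 567 CPM in the other apoE2 libraries. In the same library, Atp1b2 was at 34.7 CPM beside 15.8 to 17.2 CPM, and S100a10 at 33.4 CPM beside 13.5 to 16.8 CPM. Ptx3 was at 40.7 CPM in apoE4 replicate 4, beside 7.50 to 12.9 CPM in the others of that group.

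Effects against the shared control differed between isoforms for 4 members, by the test of the difference itself in the fit with the replicate number as a block. Between apoE3 and apoE2 the log2 difference was 1.23 for Serpina3n, 0.76 for Vim and 0.85 for B3gnt5. Slc1a2 differed by 0.51 between apoE4 and apoE2, and Serpina3n by -1.25 between apoE4 and apoE3. Without the block, none of these 5 differences had an adjusted p under 0.05 in edgeR.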

How the results depend on the processing

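The replicate block decided the calls against control. At an adjusted p under 0.05 the counts of members went from 0 to 6 with apoE2, 27 with apoE3 and 14 with apoE4, and to 3, 1 and 1 in apoE3 against apoE2, apoE4 against apoE2 and apoE4 against apoE3. At the criterion of the study the blocked counts against control were 2, 17 and 7, beside 0, 3 and 0. DESeq2 without a block called 1 member with apoE3, beside 0.352% of all genes, and at the criterion 1, 5 and 1 with apoE2, apoE3 and apoE4. DESeq2 with the block called 13, 29 and 21 members against control and 7, 2 and 2 between isoforms, in the same orders, and 1, 16 and 7 met the criterion. Shares of all genes at the criterion are not given for DESeq2, so its counts there cannot be set against them. DESeq2 size factors, no filter and fits of the compared groups alone were run without the block. They left the counts of the main fit without it the same or within 1.5 times.

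Over all fits that left out 1 library or 1 replicate number, with and without the block, members called ran from 0 to 21 with apoE2, 0 to 29 with apoE3, 0 to 22 with apoE4, 0 to 4 in apoE3 against apoE2, 0 to 2 in apoE4 against apoE2 and 0 to 2 in apoE4 against apoE3. Those at the criterion ran from 0 to 9, 1 to 18, 0 to 9, 0 to 1, 0 to 1 and 0 to 2. Without the block, all such fits called 0 members, and the criterion gave 0 to 2 members with apoE2, 1 to 13 with apoE3 (13 without number 2) and 0 to 6 with apoE4 (6 without number 2). Members that differed between replicate numbers were 34 to 35 without a library, 36 without the filter and 34 without a group term. Shares of all genes are not given beside the counts of this paragraph. In the fits described in the Results they moved with such counts, so these ranges do not describe the members alone.

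Directions were followed for the 57 member values past a threshold in either fit, and those of 4 genes turned in single fits without the block. C3 with apoE2 was -0.054 without control replicate 2 and ran from -0.20 without apoE2 replicate 4 to 1.46 without control replicate 4. Without replicate 4 of the treated group, C3 was -0.078 with apoE3 and -0.038 with apoE4, Mlc1 -0.029 and Steap4 -0.26 with apoE3, and Gja1 -0.062 with apoE4. Without control replicate 4, the same values were 2.14, 2.31, 1.28, 1.98 and 1.37. With the block, 0 of these 57 turned. Of all 216 values of the 36 members in 6 comparisons, 105 turned without some library in the fit without the block and 42 in the fit with it. The cause was not tested. Libraries of 4 a group limited what could be detected, and Gjb6 and Aspg were limited by depth.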
